A study of Mus musculus with 94 samples.

Results

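The comparison described here sets 4T1 tumors that received a single dose of 6 Gy and indomethacin (6 Gy + INDO) against untreated control tumors, both taken on day 3 after irradiation (IR). It holds 9 of the 94 tumors sequenced in the study, 4 with 6 Gy + INDO and 5 controls, chosen by their treatment and day labels alone. Of the 49080 genes in the table, 21814 had enough reads to be tested. These were divided by their mean level in the controls into 11563 well expressed genes (at least 5 CPM, counts scaled to library size), 5591 low genes (0.5 to under 5 CPM) and 4660 silent genes (under 0.5 CPM).

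All tumors grew in female BALB/c mice. The mice were 8 weeks old when 200000 4T1 cells, a mouse triple negative mammary carcinoma line, were implanted under the skin of the right hind limb, and were grouped when tumors measured 100 to 200 mm3. The 6 Gy + INDO mice received 6 Gy of X-rays to the tumor and INDO at 30 mg per L of drinking water, and controls received neither. Tumors given 6 Gy alone (n = 5) and INDO alone (n = 5) on day 3 were used to estimate the spread between tumors and for comparison with each single treatment. The labels number the tumors within a group and say nothing more of how they relate, so p-values measure the spread between these tumors. Because RNA came from whole tumors, fewer cells of a type and less RNA per cell cannot be told apart.

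Indomethacin blocks the cyclooxygenases COX1 and COX2, which make the precursor of prostaglandins from arachidonic acid. Prostaglandin E2 made by COX2 is known to dampen antitumor immunity. Ionizing radiation can leave DNA in the cytosol, where cGAS and STING1 sense it and induce type I interferons. These bind the receptor IFNAR1/IFNAR2 and switch on interferon-stimulated genes (ISGs), many of which encode antiviral proteins.

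The quality of the 6 Gy + INDO libraries was uneven, and some of them differed from the controls in depth, in stray reads or in structural RNA. Their depth was 22.1, 29.3, 68.1 and 31.4 M counts in replicates 1 to 4, against 44.0 to 87.2 M in controls. Olfactory and vomeronasal receptor genes, which a mammary tumor is not known to use, took 1161, 1972, 94.8 and 490.1 CPM in the 6 Gy + INDO tumors, against 42.8 to 91.1 CPM in controls. Replicates 1, 2 and 4 were above a limit of 300 CPM, and replicate 3 was just above the highest control. The same 3 libraries carried 7.85%, 2.91% and 3.31% of their counts on 2 predicted genes, Gm10800 and Gm10801, against 0.00464% in replicate 3 and at most 0.00504% in controls. Structural RNAs took 11.2%, 39.6%, 20.4% and 11.2% of counts in replicates 1 to 4, against 8.45% to 12.1% in controls. Replicates 1 and 4 were thus within the control range. At least 1 read was seen for 37314, 41167, 30052 and 34831 genes in the 6 Gy + INDO tumors, against 27755 to 28899 in controls. Among controls, replicates 2 and 3 held skin reads, with the epidermal keratin Krt10 at 190.2 and 92.8 CPM, against 0.588 to 1.34 CPM in the other controls.

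**Figure D1:**
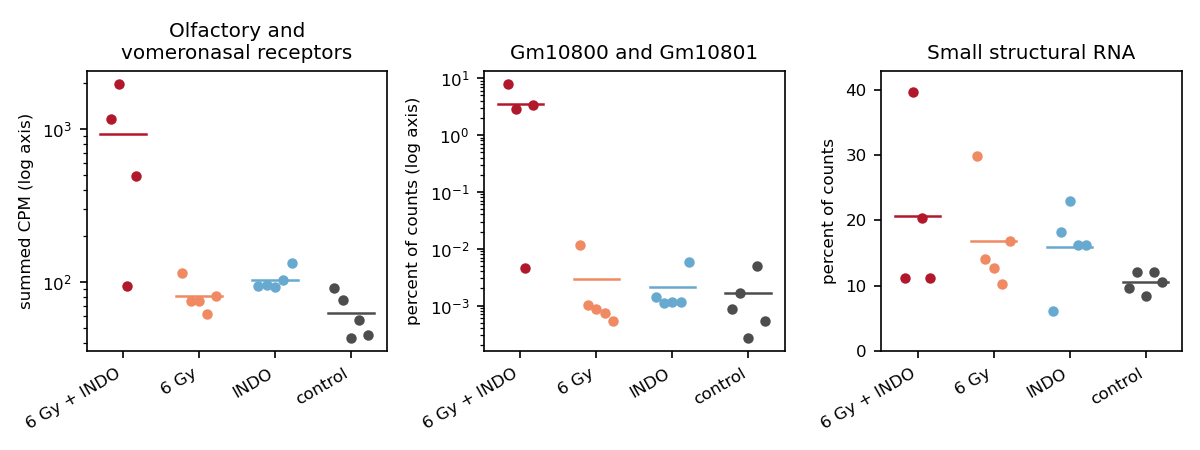
Reads on olfactory and vomeronasal receptor genes (summed CPM, log axis), on Gm10800 and Gm10801 (percent of counts, log axis) and on structural RNAs (percent of counts). Each tumor of the 4 groups on day 3 is shown, with 6 Gy + INDO at the left and controls at the right (1 point per tumor, lines are means). Replicates 1, 2 and 4 of 6 Gy + INDO lie above 300 CPM of receptor reads, and no other tumor of day 3 does.

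How much of the comparison lay in genes that tumors use depended on expression level. Over all tested genes, 2199 were higher (10.1%) and 2057 lower (9.43%) in 6 Gy + INDO tumors than in controls at an adjusted p under 0.05. Among silent genes 1148 were higher (24.6%) and 16 lower (0.343%), and among low genes 704 were higher (12.6%) and 252 lower (4.51%). A silent gene could pass the filter on low counts through the 6 Gy + INDO libraries alone and then had to be higher in them, so the silent counts and median are a description from which nothing is read. Well expressed genes ran the other way, with 347 higher (3.00%) and 1789 lower (15.5%). The median log2 fold change was -0.17 for well expressed, 0.21 for low and 0.82 for silent genes. Among the well expressed, the groups did not overlap and the 6 Gy + INDO tumors were higher for 301 genes (2.60%) and lower for 1582 (13.7%).

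The silent genes that were called carried few reads. The median level of the 1148 called higher was 0.860, 1.09, 0.282 and 0.465 CPM in the 6 Gy + INDO tumors, against 0.0953 to 0.163 CPM in controls. These genes were chosen for being higher than controls, and the tumors given 6 Gy or INDO alone had medians of 0.176 to 0.232 CPM for them. At the extreme was Gm10717, a predicted gene, with 1159, 731, 0.721 and 332 CPM in 6 Gy + INDO tumors, against 0.0714 to 0.631 CPM in controls. It is a silent gene, so only its levels are given. Replicate 3 was just above the controls for it, and Gm10721, Gm11168, Gm10722 and Gm10720 were likewise high in replicates 1, 2 and 4 and under 1 CPM in replicate 3 and in controls. With the receptor level of each of the 94 tumors as a covariate, 57 silent genes were called higher. With replicate 3 as the only 6 Gy + INDO tumor 992 of the 1148 kept their sign. That tumor had entered the calls that chose these genes, so nothing is read from the sign. What put these reads there was not tested.

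**Figure D2:**
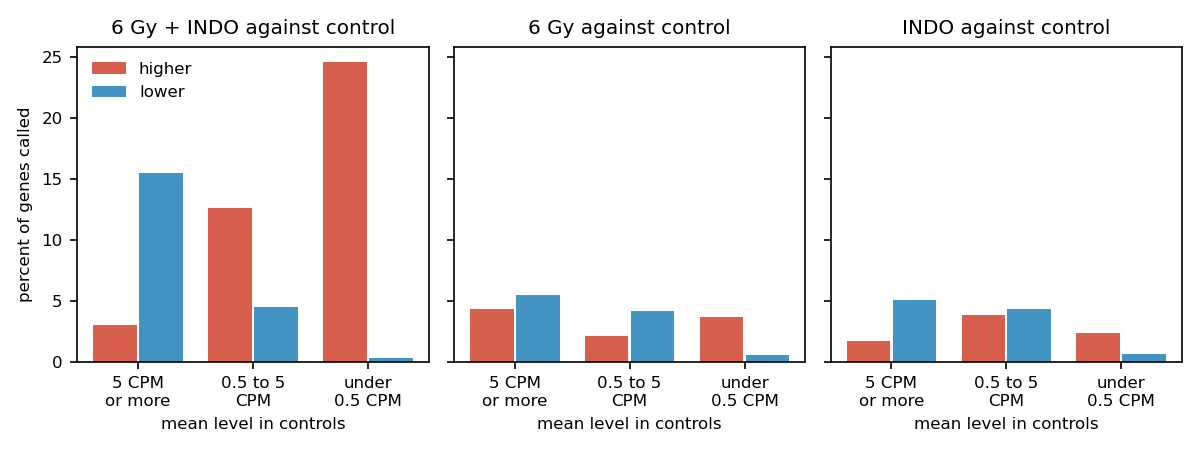
Percent of tested genes called higher and lower than in controls on day 3, for well expressed, low and silent genes (bars start at 0). The panels show 6 Gy + INDO, 6 Gy alone and INDO alone, each against controls. With 6 Gy + INDO, 24.6% of silent genes were called higher and 0.343% lower, and 3.00% of well expressed genes were called higher and 15.5% lower.

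The counts of well expressed genes turned on scaling and on single libraries. When counts were scaled by 14 housekeeping genes, the median over all tested genes moved up by 0.33 on the log2 scale, and 5329 genes were higher and 580 lower, of which 2183 and 450 were well expressed. The housekeeping genes themselves had 4 members lower and 1 higher by TMM, with a median of -0.37. When TMM factors were taken from well expressed genes alone, 985 of these were higher and 997 lower. Higher calls numbered 173 without 6 Gy + INDO replicate 1 and 225 without replicate 4. Lower calls numbered 806 without replicate 1, 769 without replicate 2, 2888 without replicate 3, 1016 without control replicate 3 and 1099 without control replicate 5. Genes below are therefore described from their levels in each tumor. In replicate 3, which had no high receptor reads but entered the calls, 293 of the 347 higher genes were above each control and 1360 of the 1789 lower genes were below each control, whereas 19.2% of well expressed genes were above and 27.8% below whatever their call.

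ISGs led the higher genes. Of a list of 36 type I ISGs, 25 were higher in 6 Gy + INDO tumors and 0 lower, with a median log2 fold change of 0.93, all 36 above 0, and 21 without overlap between the groups. Their summed level was 3578 to 5371 CPM in 6 Gy + INDO tumors, against 1411 to 3436 CPM in controls. Under housekeeping scaling 35 of the 36 were higher, and leaving out 1 tumor at a time gave 19 to 28. Control replicate 4 was the lowest control for many of them, and without it 23 were higher. With replicate 3 as the only 6 Gy + INDO tumor no ISG passed the test, while its level exceeded that of each control for 28 of the 36.

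Among well expressed genes whose groups did not overlap, predicted genes and mitochondrial or structural RNAs aside, Ifit3b had the largest increase. It belongs to the IFIT family, which binds viral RNA. Its level was 38.4, 62.6, 44.1 and 66.2 CPM in 6 Gy + INDO tumors, against 17.2, 13.3, 11.8, 5.94 and 9.59 CPM in controls (log2 fold change 2.19 ± 0.33, adjusted p = 0.000651, where ± is the SE). Its neighbor Ifit3 had 59.1, 133, 67.6 and 121 CPM in 6 Gy + INDO tumors, against 39.1, 30.5, 24.02, 14.6 and 20.5 CPM in controls (log2 fold change 1.88 ± 0.34, adjusted p = 0.00189). Ifit3 and Ifit3b are close copies, so how reads were shared between them is uncertain. Ifit1, at chr19:34640871-34650009, had 84.4, 127, 82.9 and 139.8 CPM in 6 Gy + INDO tumors, against 46.3, 38.4, 38.1, 21.5 and 33.7 CPM in controls (log2 fold change 1.61 ± 0.27, adjusted p = 0.0011). Replicates 2 and 4 were the highest for all 3 IFIT genes, and replicates 1 and 3 were also above each control.

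Other ISGs were separated as fully. Oasl1, a 2'-5' oligoadenylate synthetase-like protein known in mouse to limit IRF7 translation, had 36.3, 84.5, 56.1 and 58.4 CPM in 6 Gy + INDO tumors, against 20.1, 24.05, 20.7, 11.9 and 20.9 CPM in controls (log2 fold change 1.59 ± 0.23, adjusted p = 0.000524). Rsad2, or viperin, an antiviral radical SAM enzyme, had 54.5, 86.9, 75.6 and 72.8 CPM in 6 Gy + INDO tumors, against 30.7, 35.4, 21.9, 14.1 and 17.6 CPM in controls (log2 fold change 1.60 ± 0.34, adjusted p = 0.00487). The transcription factor Irf7, which amplifies interferon production, had 104, 183, 155 and 178 CPM in 6 Gy + INDO tumors, against 78.9, 77.1, 71.3, 39.9 and 78.7 CPM in controls (log2 fold change 1.16 ± 0.20, adjusted p = 0.00162). For Irf7 the lowest treated tumor, replicate 1, was above the highest control. Cmpk2, a mitochondrial nucleotide kinase next to Rsad2, Ifit2, the antiviral GTPase Mx1 and Samd9l also rose, with log2 fold changes of 1.46, 1.34, 1.40 and 0.85. The ubiquitin-like modifier Isg15 rose too, with 39.7, 97.3, 108 and 73.95 CPM in 6 Gy + INDO tumors, against 43.5, 38.4, 36.6, 18.9 and 37.7 CPM in controls (log2 fold change 1.19 ± 0.30, adjusted p = 0.0113), and only replicate 1 of 6 Gy + INDO was below the highest control. The oligoadenylate synthetase Oas3, whose product activates RNase L, rose with log2 fold change 1.01 ± 0.32, adjusted p = 0.0338.

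**Figure D3:**
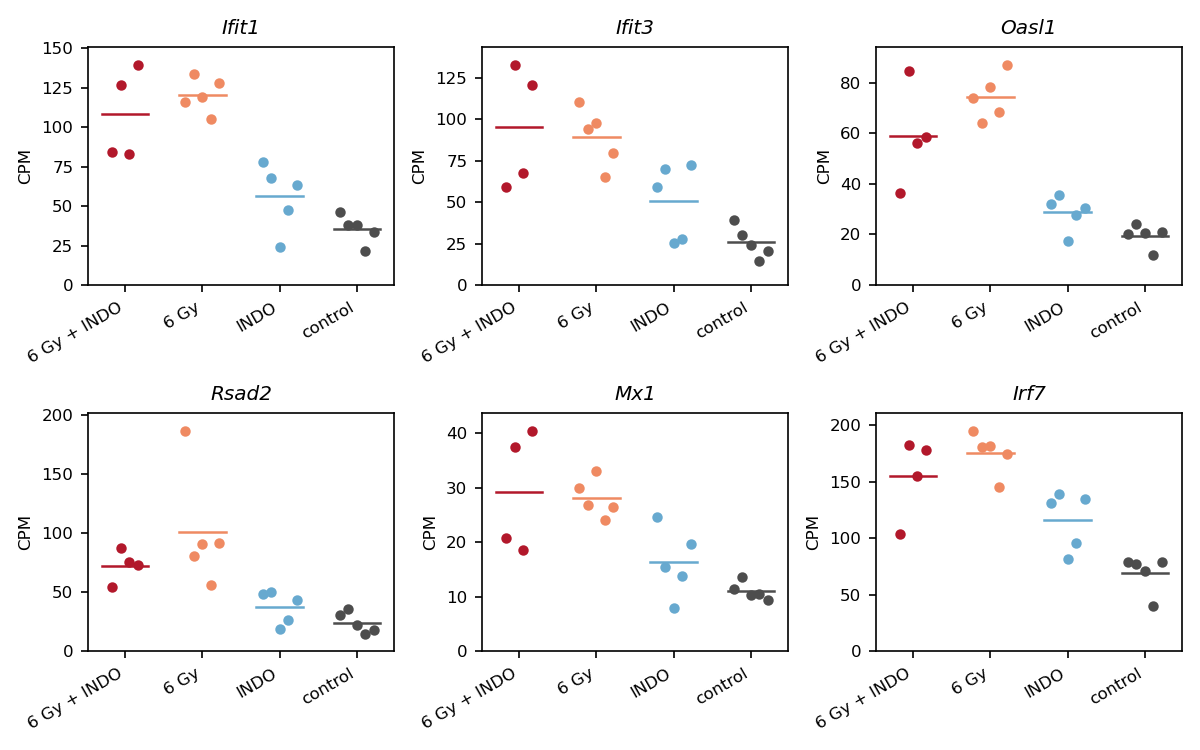
Level of 6 interferon-stimulated genes in each tumor of the 4 groups on day 3, in CPM on axes that start at 0, with 6 Gy + INDO at the left and controls at the right (points are tumors, lines are means). For Ifit1 the 6 Gy + INDO tumors sit at 82.9 to 139.8 CPM and the controls at 21.5 to 46.3 CPM.

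Promoters of these genes were read for the motif GAAA, any 2 bases, GAAA, the core of the interferon-stimulated response element, on both strands of the 300 bases from 250 before to 50 after the start of each gene in RefSeq (GRCm38.p6). The stretches below are examples from ISGs called higher, chosen because they hold a match before the start. They are written on the gene's own strand with each match in capitals (TTTC, any 2 bases, TTTC where the match is on the other strand) and 15 bases on either side. In the order of the lines they lie at chr19:34640770-34640828, chr19:34583358-34583431, chr4:156200860-156200911, chr12:26456548-26456587 and chr5:120777710-120777749.
Ifit1: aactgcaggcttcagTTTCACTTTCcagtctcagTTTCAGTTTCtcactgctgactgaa
Ifit3: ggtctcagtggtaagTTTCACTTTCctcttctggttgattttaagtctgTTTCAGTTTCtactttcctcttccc
Isg15: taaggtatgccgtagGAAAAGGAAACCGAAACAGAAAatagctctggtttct
Rsad2: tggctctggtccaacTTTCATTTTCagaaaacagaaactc
Oas3: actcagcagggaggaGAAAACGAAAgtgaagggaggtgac
Of these genes Ifit1 and Ifit3 lie on the plus strand of chromosome 19, and Ifit3b has the same letters as Ifit3. Overlapping matches were merged, as in Isg15, whose run holds 3. The motif was in the window of 13 of 25 listed ISGs with a promoter in the table (52%) and 9 of the 19 of these called higher (47.4%), against 1079 of all 27025 promoters (3.99%). Oasl1, Cmpk2, Ifit2, Samd9l and Irf7 had no match in this window. It was also in 11 of 13 promoters of interferon gamma-inducible genes (84.6%), a list in which no gene passed the test.

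Interferon gamma-inducible genes were not called. Of 20 such genes 0 were higher and 0 lower by edgeR, 0 by DESeq2 and 0 at an unadjusted p under 0.05, with a median log2 fold change of 0.50. Gbp2, a guanylate-binding protein that is a typical member, had 170.2, 662, 153 and 521 CPM in 6 Gy + INDO tumors, against 742, 284, 219.8, 52.3 and 302 CPM in controls. The chemokine Cxcl10, which draws T cells, had 22.2, 88.9, 27.9 and 68.6 CPM in 6 Gy + INDO tumors, against 63.1, 32.4, 28.2, 9.30 and 35.1 CPM in controls. For both, replicates 2 and 4 were high, replicates 1 and 3 were low, and the controls spanned most of the range. Of 18 MHC class I and immunoproteasome genes, likewise, 0 passed the test by edgeR, 0 by DESeq2 and 0 at an unadjusted p under 0.05.

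Upstream of the ISGs the members moved in both directions. Sensors of DNA and RNA in the cytosol and their adaptors had 4 of 23 genes higher, with the RNA editing enzyme Adar among them, and 2 lower, of which Ddx41 was the other beside Sting1. The RNA sensors Ddx58 (RIG-I) and Ifih1 (MDA5) and the DNA sensor family member Ifi203 rose, with log2 fold changes of 0.64, 0.76 and 0.80. Sting1 fell, with 21.4, 27.2, 32.7 and 34.6 CPM in 6 Gy + INDO tumors, against 42.9, 50.3, 49.8, 37.5 and 46.7 CPM in controls (log2 fold change -0.65 ± 0.17, adjusted p = 0.0123). All treated tumors were below all controls for it, but under housekeeping scaling its change of -0.33 was not called. Cgas, which makes the messenger that activates STING1, had 17.1, 14.6, 14.4 and 16.7 CPM in 6 Gy + INDO tumors, against 16.7, 15.6, 15.01, 12.03 and 17.2 CPM in controls (log2 fold change 0.04 ± 0.19, adjusted p = 0.909). Among 9 interferon and receptor genes with enough reads, 5 were lower, namely Ifngr1, Ifngr2, Ifnar2, Jak1 and Ifnar1, with log2 fold changes of -0.74, -0.51, -0.47, -0.41 and -0.33, and of these only Ifngr1 was still lower under housekeeping scaling. For Ifnar1 that scaling gave 0.0044. Of the 9 genes 2 or 3 were lower without 6 Gy + INDO replicate 1 or 2 or control replicate 1, 2, 3 or 5. Of the sensors 2 were higher without 6 Gy + INDO replicate 4 and 7 without control replicate 1.

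The study named 18 genes of fork protection, DNA sensing and interferon signaling on these samples, so that set is not independent evidence of a direction. Of the 14 with enough reads, Irf7 rose, and Mus81, Sting1, Batf3, Ifnar1 and Ifnar2 fell. Of those 5 none was called lower under housekeeping scaling. Irf3, the factor that STING1 activates, had a log2 fold change of -0.35 (adjusted p = 0.125), and Tnf one of -0.26 (adjusted p = 0.597).

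Of 18 endothelial genes 13 were lower and 0 higher, with a median log2 fold change of -1.24, and their summed level was 284 to 369 CPM in 6 Gy + INDO tumors, against 512 to 654 CPM in controls. Tie1, an orphan receptor of the angiopoietin pathway, had 5.42, 4.61, 6.60 and 7.55 CPM in 6 Gy + INDO tumors, against 20.7, 18.9, 20.6, 27.5 and 24.026 CPM in controls (log2 fold change -1.88 ± 0.24, adjusted p = 0.000441). Plvap, which forms the diaphragms of fenestrated vessels, had 14.2, 10.6, 17.6 and 10.6 CPM in 6 Gy + INDO tumors, against 39.99, 34.4, 33.2, 34.1 and 31.2 CPM in controls (log2 fold change -1.38 ± 0.19, adjusted p = 0.000441). Each treated tumor was below each control for both genes. The VEGF receptor Kdr had 15.2, 9.78, 17.1 and 15.02 CPM in 6 Gy + INDO tumors, against 30.2, 30.2, 31.6, 48.4 and 33.5 CPM in controls (log2 fold change -1.28 ± 0.21, adjusted p = 0.00116), without overlap. VE-cadherin (Cdh5), the junction proteins Pecam1 and Esam, and Egfl7 fell too, with log2 fold changes of -1.26, -1.16, -1.83 and -1.17. Flt1, the other main VEGF receptor, overlapped between the groups (log2 fold change 0.08 ± 0.16, adjusted p = 0.739). Under housekeeping scaling 12 of the list were lower and with the receptor covariate 8 were, and replicate 3 alone was below all controls for 15 of 18. Of 7 genes of blood 4 were lower and 1 higher, with a median of -2.70. Among the lower were the hemoglobin genes Hbb-bs, Hba-a1 and Hba-a2, with log2 fold changes of -2.77, -2.78 and -2.70. The Hba copies are nearly identical, so their values are uncertain. No blood gene was called lower with the receptor covariate or without 6 Gy + INDO replicate 1, control replicate 3 or both controls that held skin reads, and the part of blood in the endothelial result was not tested.

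Of 24 fibroblast and matrix genes 14 were lower and 0 higher, with a median log2 fold change of -0.91. Dcn, the collagen-binding proteoglycan decorin, had 18.1, 24.4, 11.3 and 23.3 CPM in 6 Gy + INDO tumors, against 110.1, 185, 111, 158 and 32.5 CPM in controls (log2 fold change -2.63 ± 0.46, adjusted p = 0.0016). The highest treated tumor was below the lowest control, replicate 5, which was itself far below the other controls. Col1a1, the main chain of fibrillar collagen, had 698, 862, 1173 and 940.0 CPM in 6 Gy + INDO tumors, against 2861, 1492, 2579.9, 2641 and 3722 CPM in controls (log2 fold change -1.53 ± 0.28, adjusted p = 0.00184). Col3a1, Pdgfra and the pericyte and fibroblast receptor Pdgfrb fell without overlap, with log2 fold changes of -1.87, -1.09 and -0.84. Fibronectin (Fn1), which carcinoma cells also make, was not called (log2 fold change 0.21 ± 0.24, adjusted p = 0.548). Under housekeeping scaling 11 of the 24 were lower, and with the receptor covariate 1 was.

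Among the largest decreases without overlap was that of Serpina3n. This gene, which encodes a secreted protease inhibitor of the acute phase, had 0.817, 1.26, 0.141 and 1.63 CPM in 6 Gy + INDO tumors, against 37.2, 43.6, 37.9, 37.7 and 7.40 CPM in controls (log2 fold change -5.13 ± 0.89, adjusted p = 0.00148). Ptx3, a soluble pattern recognition protein, had 0.903, 0.956, 0.298 and 0.581 CPM in 6 Gy + INDO tumors, against 21.95, 17.5, 20.3, 30.5 and 6.20 CPM in controls (log2 fold change -4.86 ± 0.75, adjusted p = 0.000726). Control replicate 5 was the lowest control for both and was still above each treated tumor. The matrix genes Efemp1, Dpt, Prelp and Col6a5 and the adhesion molecule Chl1 fell as well, with log2 fold changes of -4.68, -4.36, -4.04, -4.63 and -4.29. Cxcl12, the stromal chemokine that binds CXCR4, had 4.17, 3.65, 2.51 and 3.83 CPM in 6 Gy + INDO tumors, against 65.1, 56.2, 41.1, 37.5 and 18.1 CPM in controls (log2 fold change -3.63 ± 0.75, adjusted p = 0.00394). Of 13 adipocyte genes 6 were lower, among them Fabp4 with 4.65, 5.61, 2.12 and 3.78 CPM in 6 Gy + INDO tumors, against 19.7, 30.9, 19.8, 30.3 and 8.95 CPM in controls (log2 fold change -2.45 ± 0.51, adjusted p = 0.00402), and 4 were lower under housekeeping scaling. By TMM 4 of the 6 lower adipocyte genes were well expressed. Without 6 Gy + INDO replicate 1 the adipocyte count was 2, and it was 3 without replicate 4 or control replicate 2 or 3. How much tissue beside the tumor each sample held was not tested, and skeletal muscle and skin genes had 0 calls by edgeR, with 0 of 20 and 7 of 16 at an unadjusted p under 0.05 and 0 and 5 called by DESeq2. Without the 2 controls that held skin reads, 14 endothelial, 11 fibroblast and 2 adipocyte genes were lower.

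**Figure D4:**
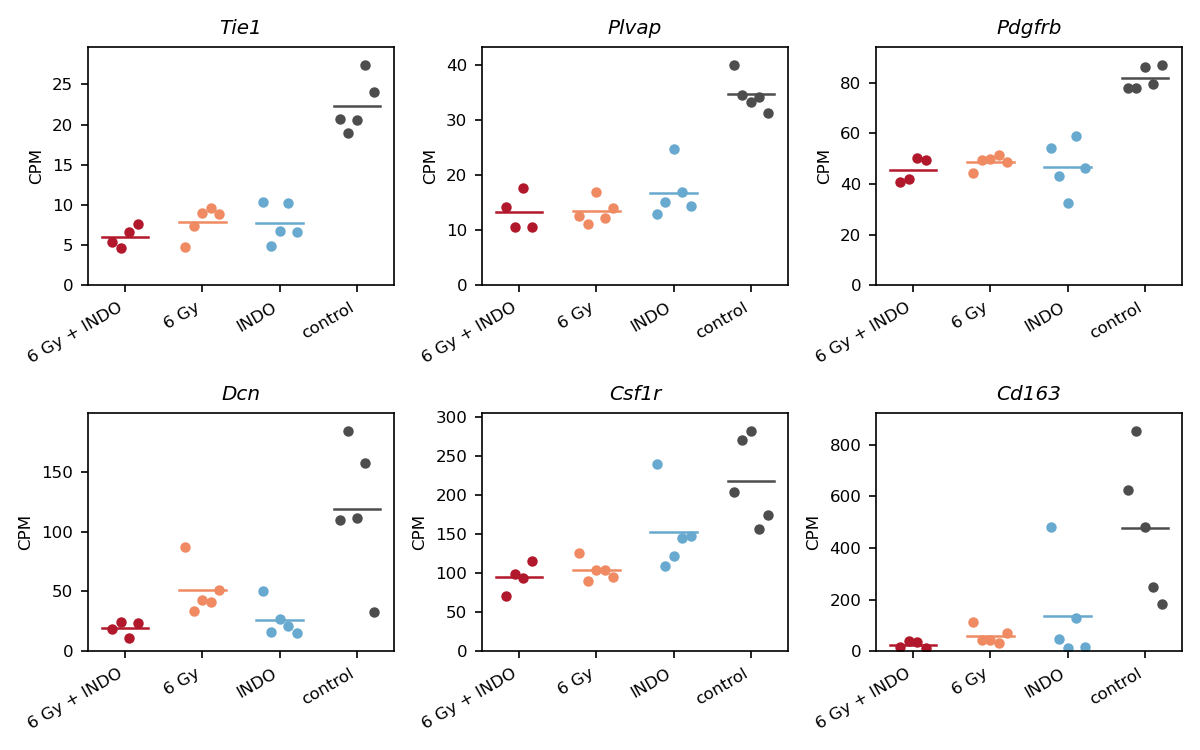
Level of 6 stromal and macrophage genes in each tumor of the 4 groups on day 3, in CPM on axes that start at 0, with 6 Gy + INDO at the left and controls at the right (points are tumors, lines are means). For Tie1 the 6 Gy + INDO tumors sit at 4.61 to 7.55 CPM and the controls at 18.9 to 27.5 CPM.

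Of 21 macrophage and monocyte genes, all well expressed, 4 were lower, which is near the share of 15.5% over all well expressed genes. Csf1r, the receptor on which most macrophages depend, had 70.5, 99.1, 93.3 and 115 CPM in 6 Gy + INDO tumors, against 204, 270.3, 283, 156 and 175 CPM in controls (log2 fold change -1.20 ± 0.22, adjusted p = 0.00217). Cd163, the hemoglobin scavenger receptor of tissue macrophages, had 14.7, 37.7, 35.5 and 12.3 CPM in 6 Gy + INDO tumors, against 626, 855, 481, 248 and 181 CPM in controls (log2 fold change -4.25 ± 0.97, adjusted p = 0.0069). Retnla, a marker of alternative activation in mouse, had 0.0430, 0.130, 0.0627 and 0.174 CPM in 6 Gy + INDO tumors, against 28.8, 28.2, 20.8, 1.40 and 0.522 CPM in controls (log2 fold change -7.28 ± 1.66, adjusted p = 0.00711). None of these groups overlapped, though Retnla was far lower in control replicates 4 and 5 than in the other controls. The endotoxin co-receptor Cd14 and the mannose receptor Mrc1 were lower, with log2 fold changes of -1.42 and -1.78, though Mrc1 was not called under housekeeping scaling. Adgre1, which encodes F4/80, was not called, with 27.3, 34.04, 39.4 and 44.9 CPM in 6 Gy + INDO tumors, against 52.7, 56.1, 73.00, 45.5 and 51.6 CPM in controls (log2 fold change -0.61 ± 0.32, adjusted p = 0.171), and neither were Arg1 (log2 fold change 0.17 ± 0.23, adjusted p = 0.617) nor Nos2 (log2 fold change -0.36 ± 0.81, adjusted p = 0.78).

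Dendritic cell genes had 5 of 15 lower, namely the lectins Clec10a (log2 fold change -3.56) and Cd209a (-4.24), the growth factor receptor Flt3 (-2.03), the CD47 receptor Sirpa (-0.79) and Batf3 (-0.96), the factor that cross-presenting dendritic cells require. Of these Clec10a and Sirpa were well expressed, and the others were under 5 CPM in controls. Batf3 was not called under housekeeping scaling. Of 12 MHC class II genes only H2-Eb1 was lower, and not under housekeeping scaling or with 7 of the 9 tumors left out singly. Neutrophil genes had 1 of 15 lower, the decoy receptor Il1r2 (-1.35), which was not called under housekeeping scaling. In the list of neutrophil-attracting chemokines, with 9 genes tested, Pf4 and Cxcl5 were lower, with log2 fold changes of -1.52 and -1.99. Pf4, a platelet factor, is not a typical member of this list, and Cxcl5 was not called under housekeeping scaling. The mast cell and progenitor receptor Kit fell, with a log2 fold change of -1.26.

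Most lymphocyte genes had low levels, under 5 CPM in controls. Well expressed were 2 of 24 T cell genes, 3 of 19 of cytotoxic lymphocytes and NK cells and 0 of 9 of B and plasma cells. Cd3e, a chain of the T cell receptor complex, had 1.03, 1.17, 0.627 and 0.407 CPM in 6 Gy + INDO tumors, against 1.89, 3.37, 1.06, 0.570 and 0.649 CPM in controls (log2 fold change -0.92 ± 1.12, adjusted p = 0.58). Cd8a had 0.989, 0.826, 0.345 and 0.290 CPM in 6 Gy + INDO tumors, against 1.30, 2.82, 0.560, 0.366 and 0.406 CPM in controls (log2 fold change -0.87 ± 1.19, adjusted p = 0.626). The groups overlapped for both, and neither difference passed the test. All 24 T cell genes had a log2 fold change below 0, with a median of -1.03, and 1 was lower, Thy1, which stromal cells also express and which was not called under housekeeping scaling. Of 19 genes of cytotoxic lymphocytes and NK cells 0 passed by edgeR or DESeq2 and 1 at an unadjusted p under 0.05, and of 9 of B and plasma cells 0 passed by any of the 3.

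Few genes of the tumor epithelium and of proliferation were called. Of 20 tumor epithelium genes 0 were called by edgeR, 1 by DESeq2 and 2 at an unadjusted p under 0.05. Epcam, an epithelial adhesion molecule, had 326, 264, 310.2 and 332 CPM in 6 Gy + INDO tumors, against 229, 208, 345, 284 and 391 CPM in controls (log2 fold change 0.08 ± 0.16, adjusted p = 0.755). Of 30 genes of mitosis and G2, 0 were called by edgeR, 0 by DESeq2 and 4 at an unadjusted p under 0.05. The proliferation marker Mki67 had 618, 496, 415 and 545 CPM in 6 Gy + INDO tumors, against 539, 543, 445, 531 and 443 CPM in controls (log2 fold change 0.05 ± 0.16, adjusted p = 0.846). Housekeeping scaling called 5 of the epithelium and 8 of the mitosis genes higher. DNA replication genes had 5 of 30 lower, which is near the share of 15.5% over all well expressed genes. Among them were cyclin E1 (Ccne1, -0.76), the flap endonuclease Fen1 (-0.70) and the helicase subunit Mcm3 (-0.58), and 0 replication genes were lower under housekeeping scaling. Without 6 Gy + INDO replicate 1 or 2 or control replicate 1, 3 or 5 the replication count was 1 to 3. Repair and fork protection genes had 3 of 30 lower, the break sensor subunit Nbn, the poly(ADP-ribose) polymerase Parp1 and the nuclease Mus81, with log2 fold changes of -0.52, -0.41 and -0.48, none of them lower under housekeeping scaling, and at most 1 was lower without 6 Gy + INDO replicate 1 or 2 or control replicate 3 or 5.

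Few p53 targets were called. Of 25 genes of this list Ddb2, a sensor of damaged DNA, was higher and Plk2 and Apaf1 were lower by a narrow margin (adjusted p = 0.0496 and 0.04997), and neither was called under housekeeping scaling. Ddb2 had 15.1, 15.9, 18.4 and 17.8 CPM in 6 Gy + INDO tumors, against 11.8, 13.7, 13.1, 13.5 and 12.9 CPM in controls (log2 fold change 0.37 ± 0.11, adjusted p = 0.0288), and all treated tumors were above all controls. It lost its call in 8 of 22 alternatives, among them leaving out 6 Gy + INDO replicate 3 or 4 or control replicate 3 or 5. The cell cycle inhibitor Cdkn1a (p21), the usual reporter of this response, was not called (log2 fold change 0.34 ± 0.18, adjusted p = 0.186), nor were Mdm2 (log2 fold change 0.13 ± 0.11, adjusted p = 0.432) and Bax (log2 fold change -0.01 ± 0.13, adjusted p = 0.975). Under housekeeping scaling 9 of the list were higher.

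Of 24 genes of the unfolded protein and heat shock response 9 were lower and 0 higher, with all 24 log2 fold changes below 0 and a median of -0.36. Xbp1, a transcription factor of the endoplasmic reticulum stress response, had 62.9, 59.2, 55.5 and 80.3 CPM in 6 Gy + INDO tumors, against 86.4, 101, 128, 116 and 134 CPM in controls (log2 fold change -0.81 ± 0.14, adjusted p = 0.00131). The chaperone cofactors Creld2 and Sdf2l1 and the degradation factor Herpud1 fell too, with log2 fold changes of -0.75, -0.98 and -0.69. The main chaperone Hspa5 was not called (log2 fold change -0.28 ± 0.18, adjusted p = 0.264), and housekeeping scaling left 3 of the 24 lower, Herpud1 not among them. By TMM the count was 4 or 5 without 6 Gy + INDO replicate 1 or 2 or control replicate 3 or 5, and 13 without 6 Gy + INDO replicate 3. Nuclear genes of the respiratory chain had 9 of 26 lower, 3 under that scaling and 15 without 6 Gy + INDO replicate 3. In contrast mitochondrially encoded genes had 6 of 13 higher, with mt-Nd1 at 1643, 1695, 981 and 973 CPM in 6 Gy + INDO tumors, against 957, 647, 704, 716 and 844 CPM in controls (log2 fold change 0.77 ± 0.21, adjusted p = 0.0183). None of the 13 was called without 6 Gy + INDO replicate 1, without replicate 2, without the controls that held skin reads or with the receptor covariate, 1 was without control replicate 2, 3 or 5, and mt-Nd1 itself lost its call in the 4 alternatives named first. Ribosomal protein genes had 5 of 40 lower, where 15.5% of all well expressed genes were, and 2 higher and 2 lower under housekeeping scaling. By TMM 25 were lower without 6 Gy + INDO replicate 3 and 1 to 3 without replicate 1, 2 or 4 or control replicate 1, 3 or 5.

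The target of INDO and its pathway were looked at member by member. Ptgs2, which encodes COX2, had 86.8, 68.3, 83.3 and 77.3 CPM in 6 Gy + INDO tumors, against 140.1, 115, 111, 102 and 102 CPM in controls (log2 fold change -0.53 ± 0.25, adjusted p = 0.129). Each treated tumor was below each control, yet the difference did not pass the test. Ptgs1, which encodes COX1, and Ptges, the synthase of prostaglandin E2 that pairs with COX2, had log2 fold changes of 0.05 and 0.06 (adjusted p = 0.904 and 0.849). Of 23 genes of the pathway 6 were lower and 0 higher, namely Akr1b3, Ptges2, the prostaglandin-degrading enzyme Hpgd, the prostacyclin synthase Ptgis and the receptors Ptgir and Ptgfr. Only Akr1b3 and Ptges2 were among the 14 well expressed members, and the other lower genes were under 5 CPM in controls. Under housekeeping scaling 1 of the 23 was lower and 1 higher, and 1 to 3 were lower without 6 Gy + INDO replicate 1 or 4 or control replicate 1, 2 or 3. Of 28 immunosuppressive mediators Cxcl12, the ectonucleotidase Entpd1 and Il10ra were lower, of which Entpd1 and Il10ra were not called under housekeeping scaling, and Lgals9, which encodes galectin 9, was higher (log2 fold change 0.56 ± 0.18, adjusted p = 0.0311). Without 6 Gy + INDO replicate 1 or control replicate 2 or 3, 1 mediator was lower. Neither Il10 (log2 fold change -0.10 ± 0.55, adjusted p = 0.917), Tgfb1 (log2 fold change -0.17 ± 0.27, adjusted p = 0.691) nor Cd274, which encodes PD-L1 (log2 fold change 0.28 ± 0.68, adjusted p = 0.796), was called.

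The single treatments share their controls with 6 Gy + INDO, so their values are given side by side. Against controls, 6 Gy alone gave 500 higher (4.32%) and 634 lower (5.48%) well expressed genes, and INDO alone 197 higher (1.70%) and 589 lower (5.09%). Of the 36 ISGs 25 were higher with 6 Gy + INDO, 30 with 6 Gy and 5 with INDO, with medians of 0.93, 1.06 and 0.65. Endothelial genes were lower for 13, 14 and 14 of 18, with medians of -1.24, -1.02 and -1.15 in the same order, and fibroblast and matrix genes for 14, 11 and 17 of 24.

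The direct test of 6 Gy + INDO against 6 Gy called 330 well expressed genes higher (2.85%) and 2071 lower (17.9%), and without 6 Gy + INDO replicate 2 these counts were 199 and 777. Of the ISGs 0 were higher and 1 lower in it, the deubiquitinase-like Usp18 (-0.71, adjusted p = 0.0386), with 0 higher and 3 lower at an unadjusted p under 0.05. For Ifit1 the difference was -0.15 (adjusted p = 0.716). Of the 18 endothelial genes 0 passed by edgeR and 2 had an unadjusted p under 0.05. Ribosomal protein genes were lower for 24 of 40, respiratory chain genes for 19 of 26 and DNA replication genes for 12 of 30. Il1b, the inflammatory cytokine, had 21.5, 24.4, 40.1 and 32.7 CPM with 6 Gy + INDO, against 686, 66.3, 82.9, 44.9 and 49.6 CPM with 6 Gy (log2 fold change -2.65 ± 0.68, adjusted p = 0.0153). Replicate 1 of 6 Gy stood far above the others there and held 29.8% structural RNA, and the other 6 Gy tumors were also above each 6 Gy + INDO tumor. The hyaluronan synthase Has1 was higher, with 23.5, 10.8, 17.6 and 10.4 CPM with 6 Gy + INDO, against 5.92, 6.99, 7.36, 8.34 and 5.49 CPM with 6 Gy (log2 fold change 1.19 ± 0.29, adjusted p = 0.0127).

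Against INDO alone, 57 well expressed genes were higher (0.493%) and 253 lower (2.19%). Without 6 Gy + INDO replicate 2 these counts were 12 and 27, and without replicate 3 they were 119 and 966. Ifit3b, Ifit1 and Oasl1 were the 3 ISGs that passed. Ifit3b had 38.4, 62.6, 44.1 and 66.2 CPM with 6 Gy + INDO, against 30.6, 32.97, 8.89, 15.9 and 31.7 CPM with INDO (log2 fold change 1.14 ± 0.32, adjusted p = 0.0486), without overlap. Ifit1 had 84.4, 127, 82.9 and 139.8 CPM with 6 Gy + INDO, against 78.1, 67.7, 24.1, 47.7 and 63.4 CPM with INDO (log2 fold change 0.95 ± 0.26, adjusted p = 0.0444). The lymphocyte and antigen presentation genes Irf4, H2-Aa and Coro1a were lower in 6 Gy + INDO tumors than in INDO tumors, with log2 fold changes of -2.47, -2.03 and -1.33. INDO replicate 3 carried lymphocyte reads, with the B cell receptor component Cd79a at 56.2 CPM, against at most 0.104 CPM in the other INDO tumors, and without this tumor 57 genes were higher and 360 lower.

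The interaction asks whether 6 Gy + INDO differed from the sum of both single changes on the log2 scale. It called 71 well expressed genes higher (0.614%) and 37 lower (0.320%). Without 6 Gy + INDO replicate 2 these counts were 6 and 0, and without INDO replicate 3 they were 201 and 276. Among the ISGs Usp18 passed, among endothelial genes Cdh5, and among fibroblast and matrix genes Col6a2, Thy1 and the gelatinase Mmp2, all named after their values were seen. The interaction was -1.37 for Usp18 and 1.33 for Cdh5 on the log2 scale.

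The position of day 3 in the time course was read from 1 fit of all 94 tumors, in which each day has its own controls. In it, 6 Gy + INDO gave 846 higher (7.32%) and 1342 lower (11.6%) well expressed genes on day 1. The counts were 460 higher (3.98%) and 3227 lower (27.9%) on day 3 and 775 higher (6.70%) and 5030 lower (43.5%) on day 7. Of the 36 ISGs, 0 were higher and 10 lower on day 1, 29 higher and 0 lower on day 3, and 3 higher and 4 lower on day 7, with medians of -0.40, 0.90 and -0.03. By edgeR 0 were higher and 1 lower on day 15, with 0 higher and 2 lower on day 23. The difference between day 3 and day 1 was itself tested. It was higher for 43 well expressed genes (0.372%) and lower for 21 (0.182%), and 23 of the 36 ISGs were higher, with 2.34 ± 0.34 for Ifit1 (adjusted p = 5.63e-05). Between day 3 and day 7 edgeR called 0 genes (0%) in either direction, although 2093 genes and 30 of the 36 ISGs had an unadjusted p under 0.05.

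Endothelial genes were lower for 13 of 18 on day 1, 15 on day 3 and 17 on day 7, with medians of -1.05, -1.28 and -1.93, and fibroblast and matrix genes for 2, 12 and 22 of 24. On day 15 the medians were 0.21 and -0.19, with 0 and 1 genes lower. On day 23 they were -0.50 and -0.28, with 2 and 1 genes lower. Both of these days had fewer controls than day 3. Over the series 11 tumors were above 300 CPM of receptor reads, of which 3 were on day 3, so other days held such tumors too.

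**Figure D5:**
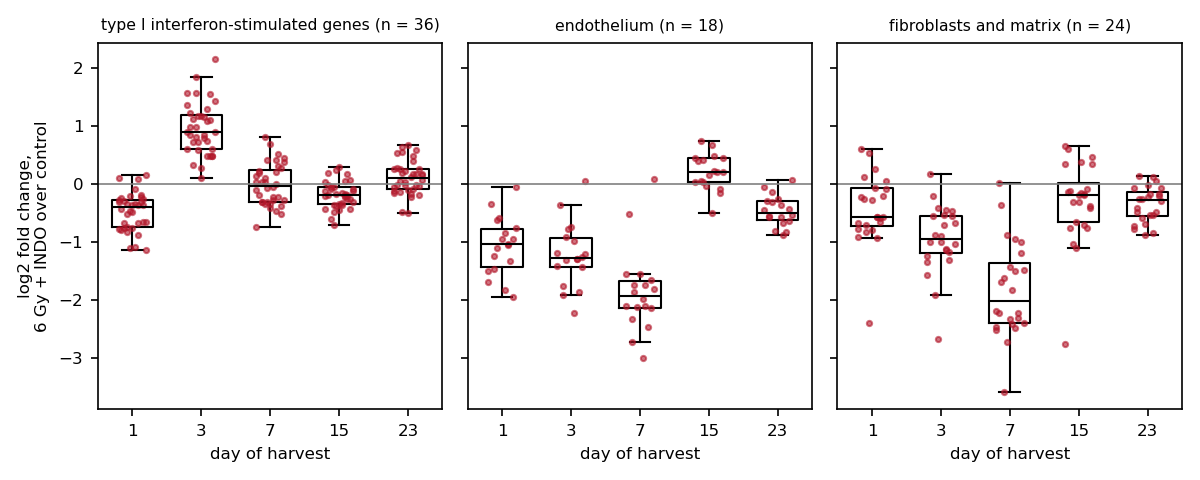
Log2 fold change of 6 Gy + INDO over control for ISGs, endothelial genes and fibroblast and matrix genes on each day, from 1 fit of all 94 tumors. Points are genes, boxes show their quartiles with the median as a black line, and the grey line at 0 is no change. The ISG median is 0.90 on day 3 and at most 0.09 on the other days, and the endothelial median is lowest on day 7, at -1.93.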

How the data were processed

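Total RNA of the tumors was sequenced by the authors as paired ends on a NovaSeq (Illumina) after a stranded total RNA preparation. Their notes name cutadapt, STAR and Partek 11.0.24.0328 and the build mm10, but the sources used here name neither counter nor annotation. Expected counts per gene were deposited by the authors as 1 table, unscaled, with reads that fit several genes shared between them. These were rounded to whole numbers and tested with edgeR 4.0.16 in R 4.3.3 (filterByExpr, TMM, quasi-likelihood F test, Benjamini-Hochberg adjustment over all 21814 tested genes, called under 0.05). The 19 tumors of day 3 entered 1 fit with a mean per group, and other days came from 1 fit of all 94 tumors. Levels are CPM with TMM library sizes, and SE is the size of the log2 fold change over the square root of F. Depth was 22.1 to 87.2 M counts in the 9 tumors, which limits the low and silent genes most.

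The comparison, gene lists and tests were chosen with earlier results of these data known. Named genes were the 4 members of each list with the smallest adjusted p among called well expressed genes, the 10 with the largest change in each direction whose groups did not overlap, leading genes against each single treatment, 5 silent genes, the genes the study named and further list members. Gm10800, Gm10801, the structural RNAs and Malat1 were chosen after their values were seen. Scripts were tested on simulated data. Alternatives were RLE factors, DESeq2 1.42.0, scaling by 14 housekeeping genes, TMM on well expressed genes, other filters and level limits, the 9 tumors alone, all 94 tumors with or without olfactory receptor level as a covariate, subtraction of reads at receptor density, replicate 3 as the only 6 Gy + INDO tumor, a replicate block, a 2-fold limit at an unadjusted p under 0.05, and each tumor left out. Leaving out both controls with skin reads and thinning to the smallest library were added after the data were seen. The labels do not say whether a shared replicate number pairs samples. Correlations of deviations between 6 Gy + INDO and control tumors of the same number were -0.01, 0.33, 0.12 and 0.14. Pairs of unlike number were not computed, so these values cannot show or exclude pairing. Promoters came from RefSeq (GRCm38.p6). No column was left unmapped.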

Additional observations from a re-analysis of the deposited data

Results flagged for a closer look

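A look at 94 groups of 4 or 5 values of named genes for a single tumor far from the others found 6, and chance marks about 1 in 20 groups. Of these 5 were in control replicate 4. It had 39.9 CPM of Irf7, against 71.3 to 78.9 CPM in the other controls, and 18.9 CPM of Isg15, against 36.6 to 43.5 CPM. It had 48.4 CPM of the VEGF receptor Kdr, against 30.2 to 33.5 CPM, 14.3 CPM of Gm10801, against 1.31 to 4.24 CPM, and 0.631 CPM of Gm10717, against 0.0714 to 0.143 CPM. Serpina3n was at 7.40 CPM in control replicate 5, against 37.2 to 43.6 CPM in the other controls.

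The interaction of 6 Gy and INDO on day 3 passed the edgeR test for 9 of the genes looked at. Among them were the silent genes Gm10717 and Gm10721, for which this test decides nothing, as explained below. Those looked at were the leading and study genes and all members of the ISG, endothelial and fibroblast lists. Of the other lists, 2 repair and fork protection genes and 1 macrophage and monocyte gene passed as well and are not named here. The interaction compares the change with INDO in irradiated tumors with that in unirradiated tumors. As given above, few well expressed genes passed it without 6 Gy + INDO replicate 2. On the log2 scale it was 0.85 for Thy1 (adjusted p = 0.0237), -1.37 for Usp18 (0.0402), 1.33 for Cdh5 (0.0402), 1.35 for Col6a2 (0.033) and 1.65 for Mmp2 (0.0237). Some predicted genes had high reads in 6 Gy + INDO replicates 1, 2 and 4. Of these it was 10.03 for Gm10800 (0.0237) and 8.68 for Gm10801 (0.0323). It was 9.50 for Gm10717 and 8.99 for Gm10721. These silent genes could pass the filter on low counts through the 6 Gy + INDO libraries alone. Their interaction then had to be positive, so the values for Gm10717 and Gm10721 are a description only. No effect of treatment is read from any of the predicted genes.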

How the results depend on the processing

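The ISG, endothelial and myeloid genes named with values in each tumor kept their call in most alternatives, and the counts over all genes did not. Ifit1, Ifit3b, Oasl1, Rsad2, Irf7, Tie1, Plvap, Dcn, Csf1r and Cd163 lost theirs in 1 of 22, with replicate 3 as the only 6 Gy + INDO tumor. Housekeeping scaling moved the median of all tested genes by 0.33 on the log2 scale and made 90.2% of all calls higher ones (82.9% of well expressed calls), and TMM on well expressed genes moved it by 0.16, with 73.6%. Values that turned sign were Rpl13 with replicate 3 alone (0.066), Ifnar1 with housekeeping scaling (0.0044), and Gm10720 (-0.042) and Gm10800 (-0.17) with the receptor covariate. The causes were not tested.

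Calls over all genes, 2199 higher and 2057 lower, were 5329 and 580 with housekeeping scaling, 1236 and 1317 with the 9 tumors alone, 8212 and 3752 with all 94 tumors, 279 and 647 with the receptor covariate and 13 and 1 with replicate 3 alone. Higher calls were 10061 with no filter. Lower calls were 1172 with TMM on well expressed genes, 1057 without the controls with skin reads and 847 at a 2-fold limit. Leaving out 1 tumor gave 1294 to 4623 higher and 957 to 3228 lower.

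Well expressed calls, 347 higher and 1789 lower, were 2183 and 450 with housekeeping scaling, 985 and 997 with TMM on well expressed genes, 163 and 395 with the covariate, 792 and 1130 with subtraction of receptor density, 6 and 1 with replicate 3 alone, 169 and 920 without the controls with skin reads and 91 and 441 at a 2-fold limit. Higher calls were 630 by DESeq2 and 807 from 1 CPM up, and lower calls 1109 with the 9 tumors alone and 3227 with all 94. Leaving out 1 tumor gave 173 to 462 and 769 to 2888.

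Silent genes called higher, 1148, were 9048 with no filter, 509 with the 9 tumors, 6788 with all 94, 57 with the covariate, 335 with subtraction, 5 with replicate 3 alone, 2087 without the controls with skin reads, 433 after thinning and 699 to 3369 with 1 tumor left out. Against 6 Gy, 330 higher and 2071 lower became 2506 and 308 with housekeeping scaling, 572 and 966 with subtraction and 171 to 361 and 777 to 3011 with 1 tumor left out. Against INDO, 57 and 253 became 1621 and 27 with housekeeping scaling, 88 and 52 with subtraction, and 12 to 119 and 27 to 966. The interaction, 71 and 37, became 697 and 8 with housekeeping scaling, with 5 lower after subtraction, and 6 to 201 and 0 to 279. The 25 ISGs were 0 with replicate 3 alone and 19 to 28 with 1 tumor left out. The 13 endothelial genes were 8 with the covariate, 0 with replicate 3 alone and 13 to 14, and the 14 fibroblast and matrix genes were 1, 0 and 10 to 16.

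With the replicate number as a block, 1805 genes were higher and 1727 lower, and of the well expressed 287 and 1465. Calls were 1200 lower against 6 Gy, 33 higher and 140 lower against INDO, and 43 higher and 6 lower for the interaction. The labels do not say that the numbers pair the samples, so this is a hint only.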
